A study of Homo sapiens with 24 samples.

Results

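Mitochondrial biogenesis regulators were followed as a set of 10 genes across LUHMES aggregates exposed to rotenone. The set comprised PPARGC1A, PPARGC1B, NRF1, ESRRA, TFAM, TFB1M, TFB2M, POLG, POLRMT and TWNK. The members were listed by gene, with earlier results of these data known. Their 13 array probes were found through the transcript accession printed for each probe. All 10 passed the filter on dim probes and were tested among 21239 genes. LUHMES cells stem from human embryonic midbrain, divide under a transgene that tetracycline switches off, and then mature into cells like dopaminergic neurons. Rotenone inhibits complex I of the respiratory chain.

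The study held 24 one-color arrays in 8 groups of 3. All aggregates were grown in 3D on a gyratory shaker, in differentiation medium with cAMP, GDNF, tetracycline and N2. On day 7 they received DMSO, rotenone at 100 nM for 24 h, or rotenone at 50 nM for 24 or 12 h, and the day 8 groups were collected right after the exposure. The day 15 groups had the same exposures, followed by wash-out and 7 days of recovery. Only 1 DMSO group existed per day, with the amount of DMSO that goes with 100 nM, so all rotenone groups of a day were compared with the same 3 DMSO arrays. The replicates were wells of a single line according to the labels, and each replicate number had its own slide. The main fit had no term for the slide. Its p-values thus measure the spread between wells together with slide differences left after the correction, and 3 arrays per group limit the precision. In whole aggregates, fewer cells of a type and less RNA per cell cannot be told apart. The DMSO replicate 1 of day 15 has a scan name that gives an exposure of 12 h and does not name DMSO, and its group rests on its GEO label.

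Mitochondrial biogenesis joins a nuclear and a mitochondrial genome. The coactivators PPARGC1A (PGC-1α) and PPARGC1B (PGC-1β) bind no DNA themselves and act through factors such as NRF1 and ESRRA, which drive nuclear genes for respiratory chain subunits and for the mitochondrial transcription machinery. In the organelle, TFAM, TFB2M and the RNA polymerase POLRMT start transcription, TFB1M methylates the small ribosomal RNA, and the polymerase POLG and the helicase TWNK copy mitochondrial DNA. Dopaminergic neurons have a high demand for respiration, and loss of complex I activity is a feature long linked to Parkinson's disease.

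Promoter sequences are shown because NRF1, a member, is known to bind promoters of genes for the mitochondrial machinery. RefSeq promoter windows of GRCh38.p14, from 250 bases before to 50 bases after the start, were at hand for 8 of the 10 members in 9 windows. NRF1 and TWNK are named without one. Positions of genes below are of the same build. The NRF1 motif, GCGCA and GCGC with any 1 base between them, was searched on both strands and was found in 4 of the 9 windows, against 5.784% of all 35116 promoter windows. The following stretches hold these matches, with the NRF1 motif in capitals, and TFB2M, which lacks it, is shown with TGCGCA, a T followed by its first 5 letters.
ESRRA (chr11:64305396-64305465, plus strand): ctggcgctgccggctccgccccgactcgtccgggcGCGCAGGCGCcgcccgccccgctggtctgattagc
TFAM (chr10:58385312-58385381, plus strand): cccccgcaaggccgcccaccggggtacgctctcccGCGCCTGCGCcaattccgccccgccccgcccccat
TFB1M (chr6:155314582-155314651, minus strand): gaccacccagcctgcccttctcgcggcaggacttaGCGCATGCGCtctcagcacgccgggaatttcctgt
TFB2M (chr1:246566262-246566308, minus strand): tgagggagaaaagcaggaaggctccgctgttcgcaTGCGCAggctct
POLRMT (chr19:633538-633596, minus strand): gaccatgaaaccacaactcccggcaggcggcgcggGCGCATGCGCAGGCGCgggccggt
Positions are counted back from the start, whose preceding base is -1, and give the first base of a match. The capitals of POLRMT cover 2 overlapping matches, at -24 and -18. The matches lay at -93 in ESRRA, at -63 in TFAM, where the motif is read on the other strand, and at -132 in TFB1M. The shorter TGCGCA, which overlaps the longer motif where a T stands before it, was in 3 windows, those of ESRRA, TFB2M and POLRMT, and in 8.236% of all windows. The GABP motif CCGGAAGT was in the POLRMT window and in 4.138% of all windows. The ERR motif TNAAGGTCA and the cAMP response motif TGACGTCA were in none of the 9 windows, with shares of 0.951% and 1.848% over all windows.

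None of these motifs was found in the windows of PPARGC1A, PPARGC1B and POLG. The 250 bases before 1 start of each coactivator gene are given below, since the largest changes on the arrays were those of PPARGC1B and PPARGC1A. They show a sequence without the runs of G and C in the stretches above, with 48% G and C in PPARGC1B and 44% in PPARGC1A.
PPARGC1B (chr5:149771690-149771939, plus strand): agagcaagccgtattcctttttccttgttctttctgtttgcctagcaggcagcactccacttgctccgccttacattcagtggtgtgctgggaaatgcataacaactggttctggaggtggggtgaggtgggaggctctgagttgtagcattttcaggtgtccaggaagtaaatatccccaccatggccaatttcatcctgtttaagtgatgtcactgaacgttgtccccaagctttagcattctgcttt
PPARGC1A (chr4:23881102-23881351, minus strand): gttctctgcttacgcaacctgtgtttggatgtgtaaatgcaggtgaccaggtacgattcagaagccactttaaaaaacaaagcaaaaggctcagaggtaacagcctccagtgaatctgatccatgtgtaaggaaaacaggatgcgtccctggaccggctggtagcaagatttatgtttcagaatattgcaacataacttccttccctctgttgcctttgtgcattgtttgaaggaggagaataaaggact
Both windows lie inside the span of their gene. No window was at hand for the outer start of PPARGC1B, at 149730310, which was not searched. The lack of a motif therefore holds for these windows alone and not for other starts of the genes. A second PPARGC1A window, at the far start of the gene, had 70.8% G and C. A match of letters is a description of the window and was not tested for binding.

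Across the series, 50.9% to 82.4% of the noncontrol spots of an array were well above background. The first slide, which carried replicate 1 of every group, is labelled as a repeated slide and was scanned on another day, had the highest shares, 67.3% to 82.4%. The levels below are log2 signals after quantile normalization and a correction of the first slide. Replicate 3 of the day 15 100 nM group stood apart, with a residual SD of 0.453 over all genes against 0.205 to 0.313 on the other arrays. Of 16 dopaminergic and neuronal markers, 13 to 14 were above background on all arrays of each group. SLC18A2, the vesicular monoamine transporter, was above background on no array in 5 of the 8 groups. Markers of astrocytes, oligodendrocytes and microglia were mostly at background, with AIF1, a microglial marker, above it on no array.

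PPARGC1B was the 1 regulator that rose with rotenone on day 8, and it did so at both doses and both durations. A gene was called at an adjusted p below 0.05 over all genes. With 100 nM for 24 h, 1 of 10 regulators was called, against 9.48% of all genes. With 50 nM for 24 h, 1 of 10 was called, against 8.02%, and with 50 nM for 12 h 1 of 10, against 5.52%. After wash-out, none of the 10 was called in any of the 3 rotenone groups, where 0% of all genes passed. On day 8 the median log2 fold change over the 10 regulators was -0.04 with 100 nM, -0.12 with 50 nM for 24 h and 0.00 with 50 nM for 12 h, with medians over all genes of -0.02, -0.02 and -0.01. Between the DMSO groups of day 8 and day 15, PPARGC1A rose and PPARGC1B, TFB2M and TWNK fell, which makes 4 of 10, against 23.2% of all genes. The median over the 10 regulators was -0.35 there, with -0.04 over all genes. All these medians count TFAM by the average of a bright probe and a probe at background. Between the DMSO days that average was -0.40, near the middle of the set, and the bright probe alone gave -0.08. After wash-out the medians were 0.09 with 100 nM, 0.06 with 50 nM for 24 h and 0.02 with 50 nM for 12 h, against -0.03, 0.00 and -0.01 over all genes.

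**Figure D1:**
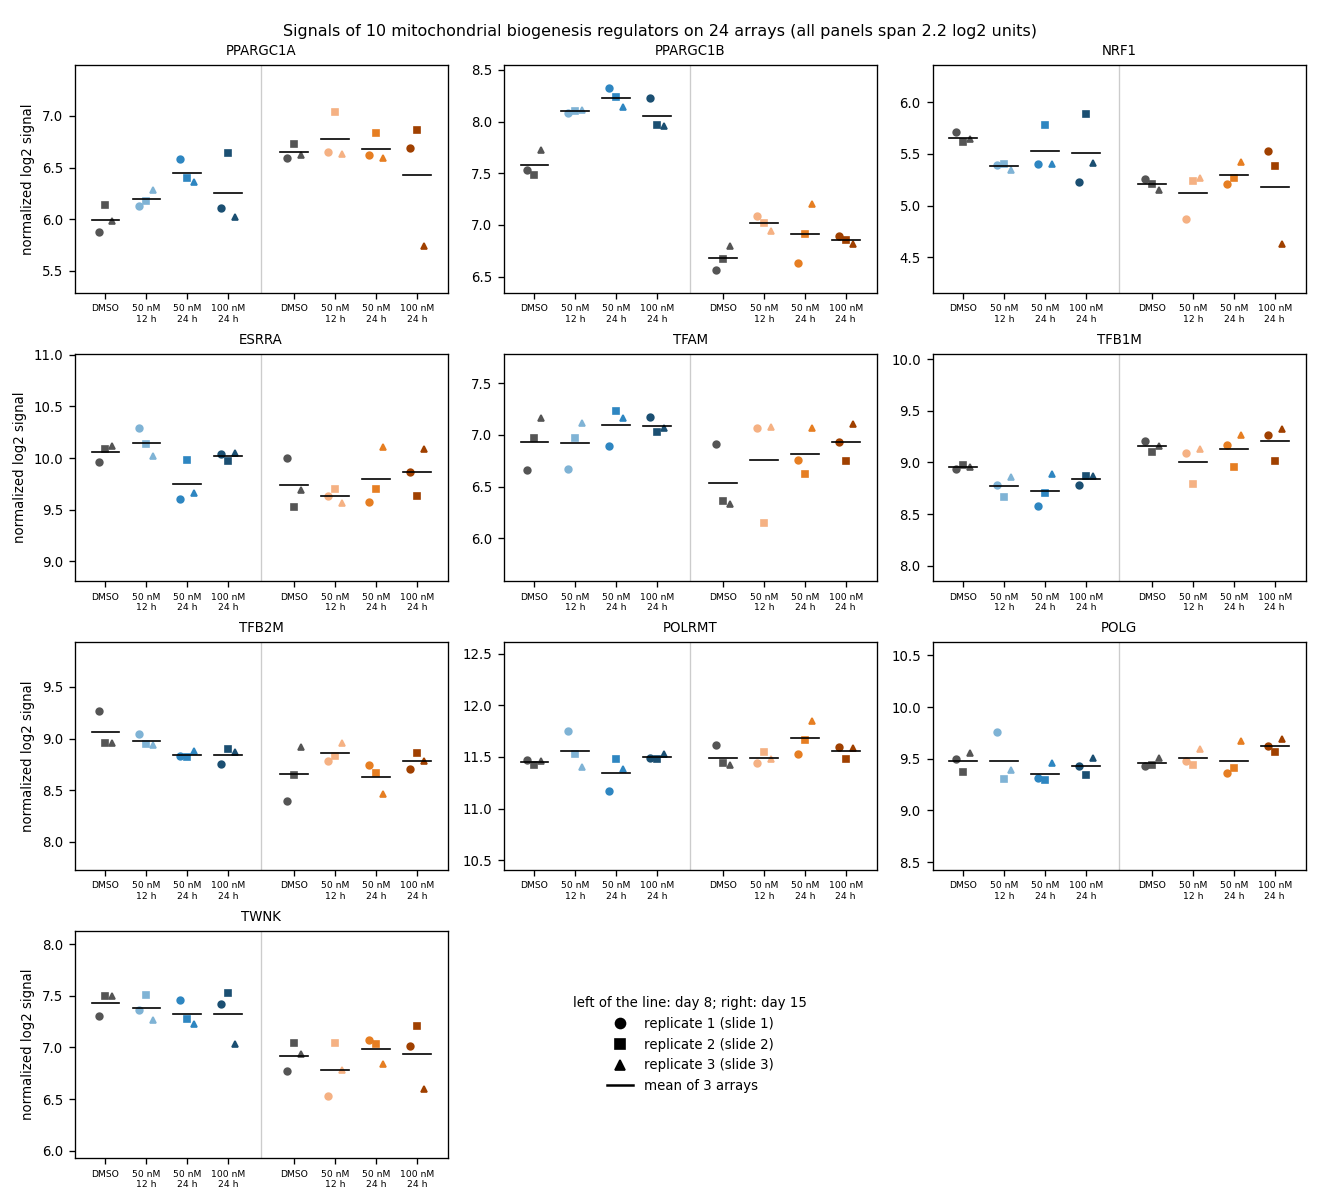
Normalized log2 signals (y axis) of the 10 regulators on all 24 arrays, by group (x axis, day 8 left of the grey line and day 15 right of it); symbols mark the replicate and its slide, black bars the mean of 3 arrays, and all panels span the same number of log2 units. PPARGC1B sits between 7.96 and 8.32 on the rotenone arrays of day 8, above the DMSO arrays of that day, and at or below 7.20 on day 15; the TFAM panel shows the mean of a bright and a dim probe.

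PPARGC1B (chr5:149730310-149857959) encodes PGC-1β, a coactivator of NRF1 and of the estrogen-related receptors. Its log2 signals were 7.54, 7.48 and 7.73 in DMSO on day 8 and 8.23, 7.97 and 7.96 with 100 nM. With 50 nM they were 8.32, 8.23 and 8.14 after 24 h and 8.09, 8.10 and 8.12 after 12 h. Every rotenone array of day 8 lay above every DMSO array of that day. The log2 fold change was 0.47 with 100 nM (SE 0.117, 95% interval 0.22 to 0.72, adjusted p = 0.0144). It was 0.65 with 50 nM for 24 h, a 1.57-fold rise (95% interval 0.41 to 0.90, adjusted p = 0.00153), and 0.52 with 50 nM for 12 h (95% interval 0.27 to 0.77, adjusted p = 0.0116). The rise was thus present after the shorter exposure and at the lower dose, and it was over 1.5-fold with 50 nM for 24 h alone. The call with 100 nM was lost when DMSO replicate 1 or 2, or 100 nM replicate 1, was left out (log2 fold change 0.45, 0.42 and 0.38, adjusted p = 0.0570, 0.0678 and 0.0927). The call with 50 nM for 12 h was lost without DMSO replicate 1 or 2 (0.50 and 0.47, adjusted p = 0.0511 and 0.0615), and that with 50 nM for 24 h held without each array of the 2 groups. On slides 2 and 3 alone the log2 fold changes with 100 nM, 50 nM for 24 h and 50 nM for 12 h were 0.36, 0.60 and 0.52 (adjusted p = 0.281, 0.0755 and 0.162), and without batch correction 0.46, 0.65 and 0.52 (adjusted p = 0.230, 0.0659 and 0.234), none of which passed.

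Dose and duration were compared directly as well. The log2 difference of PPARGC1B between 100 and 50 nM at 24 h was -0.18 (95% interval -0.43 to 0.06, adjusted p = 1.0). Between 24 and 12 h of 50 nM it was 0.13 (95% interval -0.11 to 0.38, adjusted p = 0.788). Neither difference passed the test, and the intervals leave room for a difference of up to 0.43 in size on the log2 scale.

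After wash-out, all 12 arrays of day 15 lay below all arrays of day 8 for PPARGC1B, in DMSO and rotenone alike. The day 15 DMSO arrays read 6.57, 6.67 and 6.80, and the 100 nM arrays 6.89, 6.86 and 6.82. The 50 nM arrays read 6.63, 6.91 and 7.20 after 24 h and 7.09, 7.02 and 6.94 after 12 h of exposure. The 100 nM and the 12 h arrays lay above the DMSO arrays with no overlap, and the 24 h arrays of 50 nM overlapped them. The log2 fold changes were 0.18 (95% interval -0.07 to 0.42, adjusted p = 0.757) with 100 nM, 0.24 (adjusted p = 1.0) with 50 nM for 24 h, and 0.34 (95% interval 0.09 to 0.58, unadjusted p = 0.00997, adjusted p = 1.0) with 50 nM for 12 h. The change of the 100 nM effect from day 8 to day 15 was -0.29 (SE 0.166, adjusted p = 0.454), which did not pass the test, so the effect was not shown to differ between the days.

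In DMSO alone PPARGC1B fell by 1.87-fold from day 8 to day 15 (log2 fold change -0.90, 95% interval -1.15 to -0.65, adjusted p = 1.24e-05). All 3 day 15 arrays lay below all 3 day 8 arrays, and the call held in each of 18 alternatives. This was the largest change of any regulator in these comparisons.

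PPARGC1B is read by a pair of probes, and both were above background on all 24 arrays. The probe A_23_P213959 gave log2 fold changes on day 8 of 0.56 with 100 nM, 0.67 with 50 nM for 24 h and 0.60 with 50 nM for 12 h. The probe A_33_P3816688 gave 0.38, 0.63 and 0.44. The probes moved in the same direction on day 8, but neither passed the test on its own over all probes (adjusted p from 0.0729 to 0.372). With A_23_P213959 alone standing for the gene, and the adjustment over genes, the call with 50 nM for 24 h held (adjusted p = 0.0363), and those with 100 nM and with 50 nM for 12 h were lost (adjusted p = 0.0786 and 0.0766). They differed after wash-out, with 0.64 and 0.04 for 50 nM and 12 h. The fall between the DMSO groups was seen with each, at -0.76 (adjusted p over probes = 0.0144) and -1.04 (adjusted p over probes = 0.000718).

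**Figure D2:**
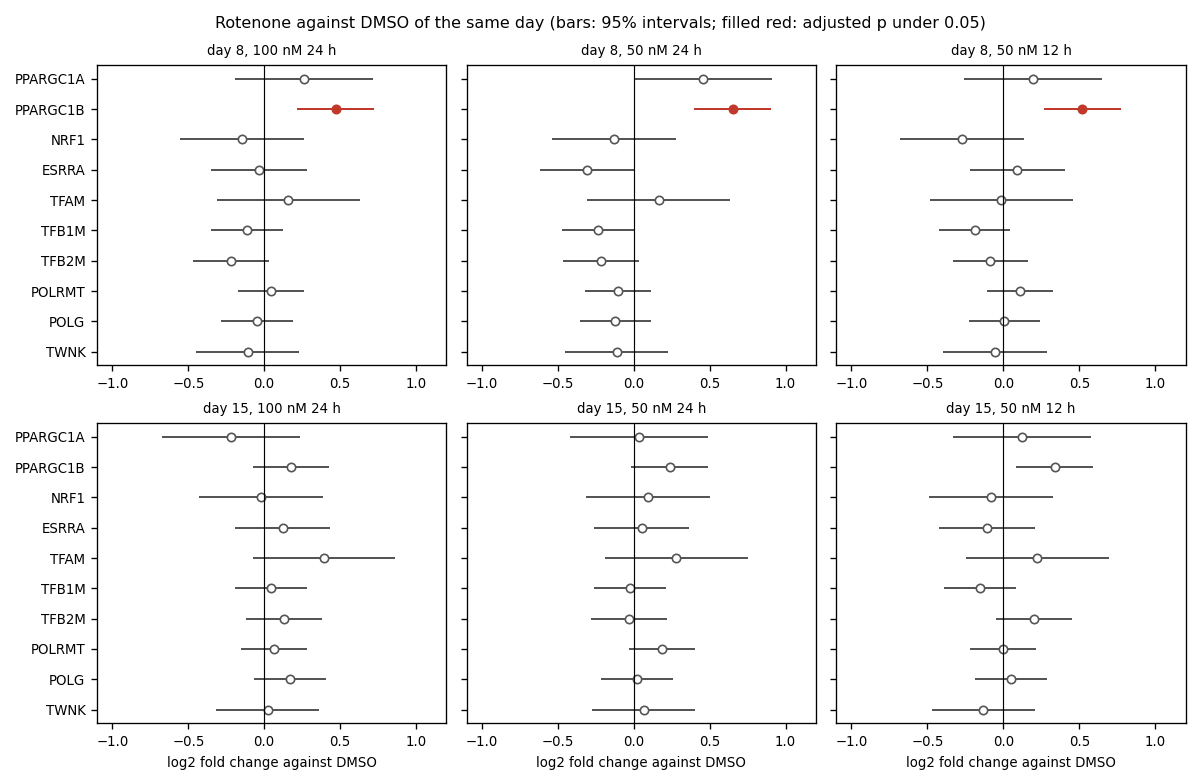
Log2 fold change of each regulator against DMSO of the same day (x axis), for the 3 rotenone groups of day 8 (top) and of day 15 (bottom); points are limma estimates from 3 arrays per group, bars 95% intervals, and filled red points passed an adjusted p of 0.05. Only PPARGC1B is filled, at 0.47, 0.65 and 0.52 on day 8; on day 15 no point is filled, and the TFAM estimate averages a bright and a dim probe.

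PPARGC1A (chr4:23792021-24472905) encodes PGC-1α, the coactivator induced by energy demand. On day 8 its log2 signals were 5.88, 6.13 and 5.98 in DMSO and 6.11, 6.64 and 6.02 with 100 nM. With 50 nM they were 6.59, 6.40 and 6.36 after 24 h and 6.13, 6.17 and 6.28 after 12 h. The 24 h arrays of 50 nM lay above the DMSO arrays, and the other groups overlapped DMSO. The log2 fold changes were 0.26 with 100 nM (SE 0.213, adjusted p = 0.585), 0.45 with 50 nM for 24 h (95% interval 0.01 to 0.90, adjusted p = 0.247) and 0.20 with 50 nM for 12 h (adjusted p = 0.763). None of these passed the test, although scaling each array to its 75th percentile in place of quantile normalization gave a call with 50 nM for 24 h (adjusted p = 0.0224).

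PPARGC1A was higher on day 15 in DMSO, where its arrays read 6.59, 6.73 and 6.63. The rise from day 8 was 1.57-fold, without overlap of the arrays (log2 fold change 0.65, 95% interval 0.20 to 1.099, adjusted p = 0.0327). PPARGC1B went the opposite way. The call was lost when any 1 of 5 of the 6 DMSO arrays was left out, all but replicate 2 of day 8 (adjusted p from 0.0629 to 0.105). On slides 2 and 3 alone the change was 0.64 (adjusted p = 0.323), and without batch correction 0.64 (adjusted p = 0.306). The washed-out 100 nM arrays read 6.69, 6.86 and 5.74, and the lowest value comes from the array that stood apart. The log2 fold change was -0.22 with it (adjusted p = 0.843) and 0.13 without it (adjusted p = 1.0). The 50 nM arrays read 6.62, 6.83 and 6.59 after 24 h and 6.65, 7.04 and 6.63 after 12 h, with log2 fold changes of 0.03 and 0.12. Both overlapped DMSO.

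NRF1 (chr7:129611720-129757076) encodes nuclear respiratory factor 1, which binds the motif shown in capitals above. Its signal was above background on all 24 arrays. On day 8 it read 5.71, 5.61 and 5.64 in DMSO, 5.22, 5.89 and 5.42 with 100 nM, 5.40, 5.78 and 5.40 with 50 nM for 24 h and 5.39, 5.40 and 5.34 with 50 nM for 12 h. The 12 h arrays lay below DMSO without overlap, with a log2 fold change of -0.27 (adjusted p = 0.547), and the 24 h groups overlapped it (-0.15 with 100 nM and -0.13 with 50 nM). On day 15 it read 5.26, 5.21 and 5.15 in DMSO and 5.53, 5.39 and 4.63 with 100 nM, 5.21, 5.27 and 5.42 with 50 nM for 24 h and 4.87, 5.24 and 5.26 for 12 h. No rotenone group was separate from DMSO there. The 100 nM log2 fold change was -0.02, and it was 0.25 without replicate 3. From day 8 to day 15 in DMSO the log2 fold change was -0.45 (SE 0.191, adjusted p = 0.102), which missed the threshold although the arrays did not overlap. The change passed in 1 of 18 alternatives, with only the arrays of these 2 groups in the fit (adjusted p = 0.0219). Estimates of the alternatives ran from -0.47 to -0.14, with adjusted p up to 0.639.

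ESRRA (chr11:64305524-64316743) encodes the estrogen-related receptor α, an orphan nuclear receptor that works with both coactivators. Its day 8 signals were 9.96, 10.08 and 10.12 in DMSO, 10.04, 9.97 and 10.05 with 100 nM, 9.60, 9.98 and 9.67 with 50 nM for 24 h and 10.29, 10.14 and 10.02 with 50 nM for 12 h. The 24 h arrays of 50 nM held the lowest values of the day, with 1 array inside the range of DMSO (log2 fold change -0.31, adjusted p = 0.257). They lay below the 12 h arrays of 50 nM with no overlap, by -0.40 on the log2 scale (SE 0.147, unadjusted p = 0.0139, adjusted p = 0.286). The 2 probes of ESRRA differed in this group, with log2 fold changes against DMSO of -0.06 and -0.55. On day 15 the signals were 9.998, 9.53 and 9.70 in DMSO, 9.87, 9.64 and 10.09 with 100 nM, 9.57, 9.70 and 10.11 with 50 nM for 24 h and 9.63, 9.70 and 9.57 for 12 h. All groups of day 15 overlapped, and the log2 fold changes ran from -0.11 to 0.12. Between the DMSO days it was -0.31 (adjusted p = 0.139), and it passed in 1 of 18 alternatives, with Agilent's processed signal (-0.40, adjusted p = 0.0410).

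TFAM (chr10:58385410-58399220) packs mitochondrial DNA into nucleoids and opens its promoters. The bright probe of TFAM, A_33_P3389188, was above background on all 24 arrays, and the dim probe, A_24_P134727, on 1 of 24. The bright probe read 9.86, 10.10 and 10.59 in DMSO on day 8, 10.50, 9.98 and 10.44 with 100 nM, 10.57, 10.11 and 10.29 with 50 nM for 24 h and 9.96, 10.01 and 10.76 with 50 nM for 12 h. On day 15 it read 10.13, 9.82 and 10.36 in DMSO, 10.31, 9.75 and 10.44 with 100 nM, 10.06, 9.77 and 10.44 with 50 nM for 24 h and 10.04, 9.67 and 10.30 for 12 h. Its groups overlapped on both days, and the largest of its 7 log2 fold changes against DMSO or between the DMSO days was 0.14, with an SE of 0.263. The average of both probes gave -0.40 between the DMSO days (adjusted p = 0.225) and 0.39 with 100 nM on day 15 (adjusted p = 0.720), where the bright probe gave -0.08 and 0.06. These averages therefore follow a probe at background.

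**Figure D3:**
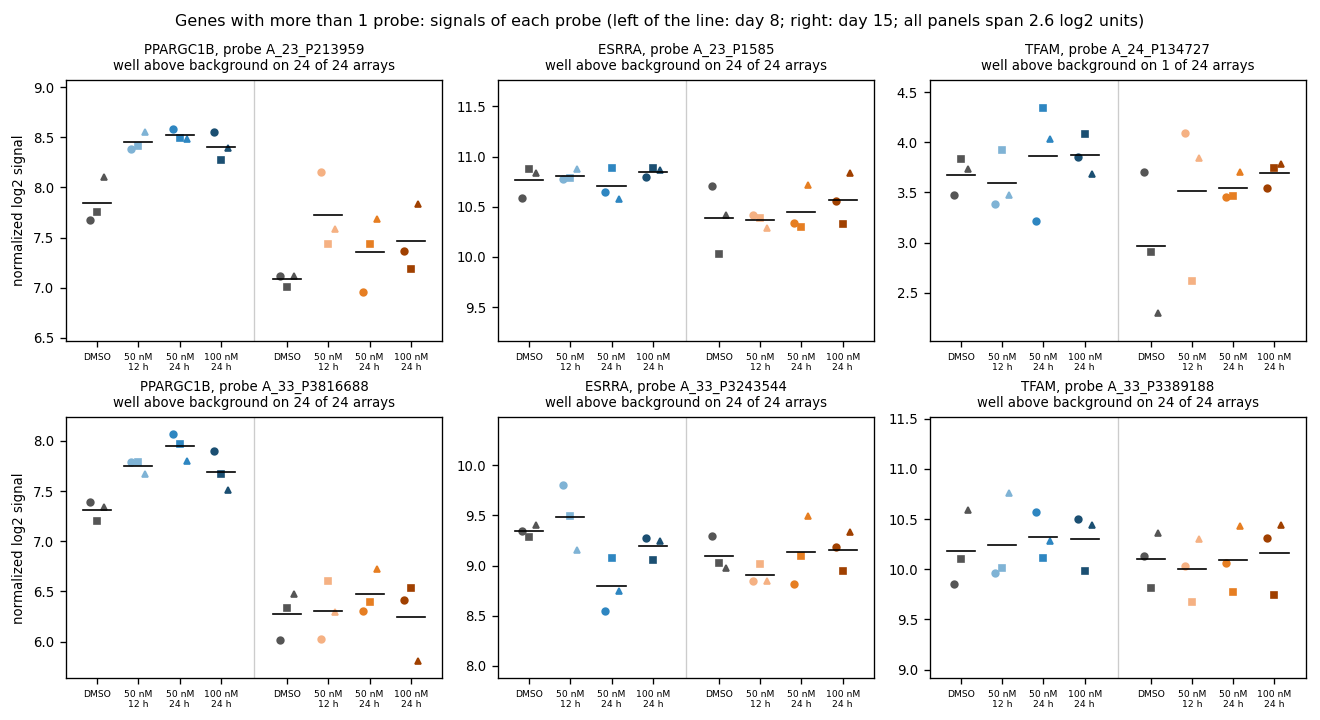
Normalized log2 signals (y axis) of each probe of PPARGC1B, ESRRA and TFAM by group (x axis, day 8 left of the grey line, day 15 right), with symbols for the 3 replicates, black bars for their mean and an equal span of log2 units per panel. Both PPARGC1B probes are higher with rotenone on day 8 and lower on day 15 DMSO. The dim TFAM probe, in the top row and above background on 1 of 24 arrays, carries the day 15 changes of the TFAM average.

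TFB1M (chr6:155229871-155314484), the methyltransferase of the small mitochondrial ribosomal RNA, read 8.94, 8.98 and 8.96 in DMSO on day 8. It read 8.79, 8.87 and 8.87 with 100 nM, 8.58, 8.70 and 8.89 with 50 nM for 24 h and 8.78, 8.66 and 8.86 with 50 nM for 12 h. All 9 rotenone arrays lay below the 3 DMSO arrays, by a small margin. The log2 fold changes were -0.11, -0.23 and -0.19, and none passed the test (adjusted p = 0.670, 0.242 and 0.432). Day 15 brought 9.20, 9.11 and 9.16 in DMSO, 9.26, 9.02 and 9.33 with 100 nM, 9.17, 8.96 and 9.27 with 50 nM for 24 h and 9.09, 8.79 and 9.13 for 12 h. The rotenone arrays overlapped DMSO in all 3 groups, with log2 fold changes of 0.04, -0.03 and -0.16. The DMSO arrays of day 15 lay above those of day 8, by 0.20 (adjusted p = 0.213).

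TFB2M (chr1:246540561-246566261), which melts the promoter for the mitochondrial polymerase, fell with the day in DMSO. It read 9.27, 8.96 and 8.96 on day 8 and 8.39, 8.65 and 8.92 on day 15. The arrays did not overlap, although the closest values were 8.96 and 8.92. The log2 fold change was -0.41 (SE 0.116, 95% interval -0.65 to -0.16, adjusted p = 0.0153). The call was lost without replicate 1 of day 8 (-0.30, adjusted p = 0.0951) or of day 15 (-0.28, adjusted p = 0.105), and on slides 2 and 3 alone the change was -0.16 (adjusted p = 0.498). Without batch correction it was -0.41 (adjusted p = 0.272), and with only the arrays of the DMSO groups -0.41 (adjusted p = 0.141). On day 8 the rotenone arrays read 8.75, 8.90 and 8.87 with 100 nM, 8.83, 8.82 and 8.88 with 50 nM for 24 h and 9.04, 8.95 and 8.94 with 50 nM for 12 h. The 24 h groups lay below DMSO without overlap, with log2 fold changes of -0.22 and -0.22 that missed the threshold (adjusted p = 0.311 and 0.331). On day 15 they read 8.71, 8.86 and 8.78 with 100 nM, 8.74, 8.66 and 8.46 with 50 nM for 24 h and 8.78, 8.84 and 8.95 for 12 h. All overlapped DMSO. The 100 nM effect was not shown to differ between the days (difference 0.35, unadjusted p = 0.0475, adjusted p = 0.338).

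POLRMT (chr19:617221-633537), the mitochondrial RNA polymerase, gave no call in any comparison. On day 8 it read 11.47, 11.42 and 11.46 in DMSO, 11.49, 11.48 and 11.53 with 100 nM, 11.17, 11.48 and 11.38 with 50 nM for 24 h and 11.75, 11.53 and 11.40 with 50 nM for 12 h. The log2 fold changes were 0.05, -0.11 and 0.11, and the 100 nM arrays lay just above DMSO. On day 15 it read 11.62, 11.44 and 11.42 in DMSO, 11.60, 11.48 and 11.59 with 100 nM, 11.53, 11.67 and 11.85 with 50 nM for 24 h and 11.44, 11.54 and 11.48 for 12 h. Its highest log2 fold change there was 0.19, with 50 nM for 24 h (unadjusted p = 0.0775, adjusted p = 1.0), in overlap with DMSO. Between the DMSO days it was 0.04 (adjusted p = 0.826).

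POLG (chr15:89316320-89334824) is the catalytic subunit of the mitochondrial DNA polymerase. Its day 8 signals were 9.50, 9.37 and 9.56 in DMSO, 9.43, 9.34 and 9.51 with 100 nM, 9.32, 9.29 and 9.46 with 50 nM for 24 h and 9.76, 9.30 and 9.39 with 50 nM for 12 h. These overlapped, and the log2 fold changes were -0.05, -0.12 and 0.01. On day 15 the signals were 9.43, 9.44 and 9.51 in DMSO, 9.63, 9.57 and 9.69 with 100 nM, 9.36, 9.41 and 9.68 with 50 nM for 24 h and 9.48, 9.44 and 9.60 for 12 h. The 100 nM arrays lay above DMSO there, by 0.17 on the log2 scale (adjusted p = 0.748). The DMSO days differed by -0.02 (95% interval -0.25 to 0.21).

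TWNK (chr10:100987543-100994403), the helicase that unwinds mitochondrial DNA ahead of POLG, fell from day 8 to day 15 in DMSO. It read 7.30, 7.50 and 7.50 on day 8 and 6.78, 7.04 and 6.94 on day 15. The days did not overlap, and the log2 fold change was -0.52 (SE 0.159, 95% interval -0.85 to -0.18, adjusted p = 0.0232). The call was lost without day 8 replicate 2 (-0.48, adjusted p = 0.0740) or 3 (-0.48, adjusted p = 0.0746) and without day 15 replicate 1 (-0.45, adjusted p = 0.0954). It was also lost on slides 2 and 3 alone (-0.52, adjusted p = 0.215) and without batch correction (-0.52, adjusted p = 0.275). With rotenone on day 8 it read 7.42, 7.52 and 7.04 for 100 nM, 7.46, 7.28 and 7.23 for 50 nM and 24 h, and 7.36, 7.51 and 7.27 for 50 nM and 12 h. After wash-out it read 7.02, 7.21 and 6.59 for 100 nM, 7.08, 7.03 and 6.84 for 50 nM and 24 h, and 6.53, 7.04 and 6.78 for 50 nM and 12 h. Every rotenone group overlapped DMSO of its day, with log2 fold changes from -0.13 to 0.06.

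**Figure D4:**
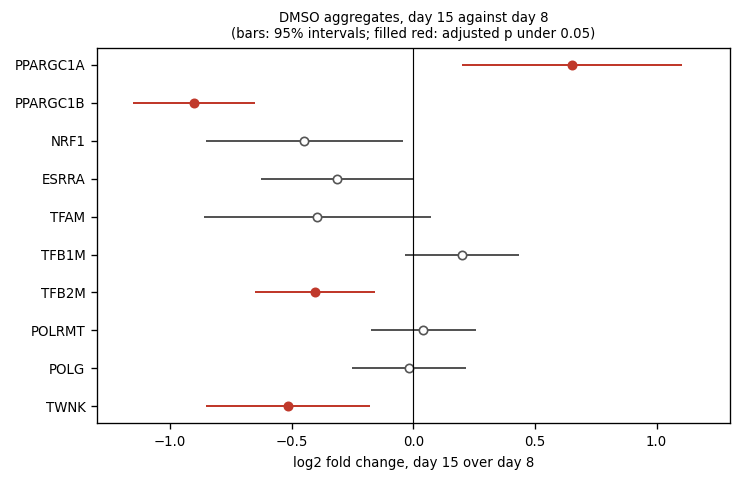
Log2 fold change of each regulator from day 8 to day 15 in DMSO (x axis), with limma estimates from 3 arrays per day as points and 95% intervals as bars; filled red points passed an adjusted p of 0.05. PPARGC1A is filled on the side of a rise, at 0.65, and PPARGC1B, TFB2M and TWNK on the side of a fall, at -0.90, -0.41 and -0.52.

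Overlap of the single arrays was counted in each comparison. In DMSO, 6 of 10 regulators had no overlap between day 8 and day 15 (PPARGC1A and TFB1M higher, PPARGC1B, NRF1, TFB2M and TWNK lower), against 40.0% of all genes. Against DMSO on day 8, 4 of 10 were separate with 100 nM (28.5% of all genes), 4 of 10 with 50 nM for 24 h (28.1%) and 3 of 10 with 50 nM for 12 h (23.6%). After wash-out the counts were 2 of 10 with 100 nM (7.84%), 0 of 10 with 50 nM for 24 h (7.15%) and 1 of 10 with 50 nM for 12 h (7.43%). Each of these comparisons uses the DMSO arrays of its day again. The day 15 tests left wide limits, since over the 10 regulators the 95% intervals with 100 nM reached from -0.66 to 0.86 on the log2 scale. At an unadjusted p below 0.05, 0 of 10 regulators passed with 100 nM on day 15 (7.21% of all genes), 0 of 10 with 50 nM for 24 h (3.28%) and 1 of 10, PPARGC1B, with 50 nM for 12 h (3.47%).

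Dose, duration and the change of effect between days called no regulator. Between 100 and 50 nM at 24 h, 0 of 10 were called in limma at an adjusted p, as were 0% of all genes, 0 of 10 had an unadjusted p below 0.05 (4.17% of all genes), and 0 of 10 were without overlap (11.2%). Between 24 and 12 h of 50 nM, 0 of 10 were called (0.537% of all genes) and 2 of 10 had an unadjusted p below 0.05 (10.9%). In that comparison 4 of 10 were without overlap (16.9%), with PPARGC1A and PPARGC1B higher and ESRRA and TFB2M lower at 24 h. For the change of the 100 nM effect from day 8 to day 15, 0 of 10 were called (2.44% of all genes) and 1 of 10, TFB2M, had an unadjusted p below 0.05 (14.4%).

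Markers of dividing cells moved with the day as well. Of 8 proliferation genes, 7 fell from day 8 to day 15 in DMSO (13.2% of all genes), with a median log2 fold change of -1.19. Their summed log2 signal went from 10.7 to 11.2 on the day 8 arrays to 10.3 to 10.4 on day 15, and TOP2A and BUB1 were above background on no DMSO array of day 15. Of 16 neuronal markers 3 rose and 3 fell, against 10.1% of all genes higher and 13.2% lower. NR4A2 (a dopaminergic transcription factor) rose by 1.57 on the log2 scale, while TH (tyrosine hydroxylase) and SLC6A3 (the dopamine transporter) fell, with log2 fold changes of -2.94 and -2.07. With 100 nM on day 8 none of the 8 proliferation genes passed the test. All 8 estimates were negative, with a median of -0.22. Of the 16 neuronal markers 1 fell and none rose there, against 5.41% of all genes lower and 4.07% higher. Their log2 fold changes had a median of -0.001, and 8 of 16 were positive. The marker that fell was MAP2, a dendritic marker (log2 fold change -0.57, adjusted p = 0.00281). The part of the proliferation and neuronal markers in the changes of PPARGC1A, PPARGC1B, TFB2M and TWNK was not tested.

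The partners of the 10 regulators were read from 6 lists of related genes. Among 25 other coactivators, receptors and DNA-binding factors, 2 rose and 4 fell with 100 nM on day 8, against 4.07% of all genes higher and 5.41% lower, with a list median of -0.10 (all genes -0.02). RXRA, a partner of many nuclear receptors, rose by 0.53 on the log2 scale (adjusted p = 0.00567), and PPRC1, the third coactivator of the PGC-1 family, by 0.34 (adjusted p = 0.00587). CREB1, the cAMP-responsive factor known to drive PPARGC1A, had a log2 fold change of -0.81 (adjusted p = 0.00117), NCOA1, a steroid receptor coactivator, of -0.50 (adjusted p = 0.00506), and NRIP1, a nuclear receptor corepressor, of -0.46 (adjusted p = 0.0130). ESRRB, a relative of ESRRA, was called lower, with 2 of its 3 rotenone arrays above background. In this list 1 gene rose and none fell with 50 nM for 24 h (8.02% of all genes called). With 50 nM for 12 h 2 rose and none fell (5.52%).

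Genes upstream of the coactivators were read next. Of 24 signalling genes, such as those of AMP-activated kinase, SIRT1 and mTOR, 1 fell and none rose with 100 nM on day 8. Over all genes 5.41% were lower and 4.07% higher, and the list median was -0.01. The gene that fell was PPP3CA, the catalytic subunit of calcineurin (log2 fold change -0.54, adjusted p = 0.00458). It also fell with 50 nM for 24 h, at -0.45 (adjusted p = 0.0182), where it was the 1 call of the list (8.02% of all genes called). With 50 nM for 12 h 1 gene of the list rose and none fell (5.52% of all genes called). The gene that rose was PRKAG2, a regulatory subunit of AMP-activated kinase, named after its values were seen (0.36, adjusted p = 0.0274).

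Genes of mitochondrial DNA replication and repair act beside POLG and TWNK. Of 15, 2 rose and none fell with 100 nM, against 4.07% of all genes higher and 5.41% lower, with a list median of 0.03. With 50 nM 3 rose and 1 fell at 24 h (8.02% of all genes called), and 2 rose and 2 fell at 12 h (5.52%). MPV17, an inner membrane protein needed to keep mitochondrial DNA, rose by 0.47 (adjusted p = 0.000612), and TOP1MT, the mitochondrial topoisomerase, by 0.50 (adjusted p = 0.00146). TOP1MT rose with 50 nM too, by 0.49 at 24 h and 0.45 at 12 h (adjusted p = 0.00218 and 0.00580). The genes that fell with 50 nM, named after their values were seen, were the nuclease FEN1 at 24 h (-0.61, adjusted p = 0.00482) and PRIMPOL and the glycosylase OGG1 at 12 h (-0.42 and -0.34, adjusted p = 0.0207 and 0.0318). Of 18 genes of nucleotide supply and nucleoid proteolysis none was called with 100 nM (3 had an unadjusted p below 0.05), against 9.48% of all genes. In that list 1 fell with 50 nM for 24 h (8.02% of all genes called). None was called with 50 nM for 12 h (5.52%), where 2 had an unadjusted p below 0.05. With 100 nM the smallest p was that of SLC25A33, a pyrimidine nucleotide carrier, at 0.37 (adjusted p = 0.135).

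Genes that act beside TFAM, TFB2M and POLRMT on mitochondrial RNA had few calls with rotenone on day 8. Of 22 tested, 3 fell and none rose with 100 nM, with a list median of -0.08, against 5.41% of all genes lower and 4.07% higher. FASTKD5, which takes part in processing mitochondrial precursor RNA, had a log2 fold change of -0.57 with 100 nM (adjusted p = 0.000239), -0.41 with 50 nM for 24 h (adjusted p = 0.00471) and -0.61 with 50 nM for 12 h (adjusted p = 0.000290). HSD17B10, a subunit of mitochondrial RNase P, was at -0.37 (adjusted p = 0.0242), and MTERF1, a termination factor, was called lower with 2 of 3 rotenone arrays above background. With 50 nM 2 of the list were called lower at 24 h and 1 at 12 h, and none higher, against 8.02% and 5.52% of all genes called. The list medians were 0.01 and -0.06. Of the 22 estimates, 9 were positive with 100 nM, 12 with 50 nM for 24 h and 9 with 50 nM for 12 h.

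The classical targets of NRF1 and GABP were called in both directions. Of 20, 2 rose and 1 fell with 100 nM, against 4.07% of all genes higher and 5.41% lower, and the list median was 0.01. With 50 nM 2 rose and none fell at 24 h (8.02% of all genes called), and 2 rose and 2 fell at 12 h (5.52%). COX17, a copper chaperone for cytochrome c oxidase, rose by 0.57 (adjusted p = 0.000441), TOMM34, a cytosolic helper of protein import, rose by 0.32 (adjusted p = 0.00673), and SURF1, an assembly factor of the same oxidase, was at -0.40 (adjusted p = 0.0362). COX17 rose with 50 nM as well, by 0.60 at 24 h and 0.51 at 12 h (adjusted p = 0.000349 and 0.00209). On day 15 no gene of the 6 lists was called by limma with any rotenone exposure, as were 0% of all genes. In a list 0 to 3 genes had an unadjusted p below 0.05, against 3.28% to 7.21% of all genes. A change of the 100 nM effect between the days was called for 2.44% of all genes. The effect was higher on day 15 for 2 of 25 coactivators and factors and 1 of 22 genes of mitochondrial RNA. It was lower for 1 of 15 replication genes and 2 of the 20 targets, and the signalling and nucleotide lists had no call. Among these calls were COX17 (-0.62, adjusted p = 0.0131) and FASTKD5 (0.61, adjusted p = 0.00817).

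From day 8 to day 15 in DMSO the calls among the genes of mitochondrial RNA were all falls. Of 22 tested, 9 fell and none rose, with a list median of -0.19, against 13.2% of all genes lower, 10.1% higher and a median of -0.04. FASTKD2, which binds mitochondrial ribosomal RNA, had a log2 fold change of -0.51 (adjusted p = 4.02e-05), and MTERF2, a member of the termination factor family, of -0.55 (adjusted p = 0.000581). Of the 25 coactivators and factors, 5 rose and 4 fell, read against the same shares. MEF2A, a factor active in neurons, rose by 0.49 (adjusted p = 0.00161) and TFEB, a regulator of lysosomal genes, by 0.66 (adjusted p = 0.00182). NCOA1 was at -1.09 (adjusted p = 3.52e-07), and ESRRB was called lower with 2 of 3 day 15 arrays above background.

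Of the 24 signalling genes 1 rose and 4 fell over the same interval. This count and those of the lists below are read against 10.1% of all genes higher and 13.2% lower. PPP3CA rose by 0.36 (adjusted p = 0.0307) with overlap of the arrays, PRKAA1, a catalytic subunit of AMP-activated kinase, was at -0.56 (adjusted p = 0.00396), and RPTOR, the scaffold of mTOR complex 1, at -0.38 (adjusted p = 0.00514). In the replication list 1 gene rose and 2 fell. PRIMPOL, which re-primes stalled replication, rose by 0.72 (adjusted p = 3.68e-05), and the topoisomerase TOP3A and the ligase LIG3 were at -0.59 and -0.80 (adjusted p = 0.00316 and 0.00777). The nucleotide list had 1 rise, SLC25A4, the ADP/ATP carrier (0.46, adjusted p = 8.37e-05), and 1 fall, RRM1, a subunit of ribonucleotide reductase (-0.33, adjusted p = 0.00961). Among the targets of NRF1 and GABP, COX17 and COX6A1 rose, by 0.36 and 0.26 (adjusted p = 0.00641 and 0.0205), and COX4I1 and SDHD were lower, at -0.50 and -0.34 (adjusted p = 0.000220 and 0.0285).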

How the data were processed

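RNA of 24 wells was hybridized to Agilent 60K arrays. The authors deposited the scanner output, with each spot's median intensity, extracted with Feature Extraction 11.5.1.1 or 12.0.0.7 per the file headers, and their normalized log2 values, which served as an alternative. After the study's methods, intensities were corrected with normexp (offset 0), quantile normalized and, for the first slide, adjusted by parametric ComBat, coded anew in R, with the groups as covariates. The offset and the covariates are not given in the sources used here. Of 62976 spots, those over 1.1 times the 95th percentile of 308 negative controls on at least 3 arrays were kept. Probes were named through RefSeq (30275 of 50599) and averaged per gene. All 24 arrays entered 1 fit (limma 3.58.1 in R 4.3.3, two-sided, Benjamini-Hochberg over 21239 genes). The code was also run on simulated data with independent noise and a shift of replicate 1. Those data lacked deviations shared by the arrays of slide 2 or of slide 3. The slide gives the replicate number and pairs the arrays. Before ComBat, deviations from the group mean correlated at 0.171 or more between same-numbered arrays (84 pairs, median 0.458). Other pairs had a median of -0.354, which is no separate evidence, since the deviations cancel within a group. The members and lists were chosen with earlier results of these data known. All 10 regulators are named. Of each list, called genes are named up to 4 per direction for 100 nM on day 8 and up to 2 for the DMSO days, by smallest p. Alternatives covered background, scaling, batch, filter, probe choice, arrays in the fit and each array left out.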

Additional observations from a re-analysis of the deposited data

How the results depend on the processing

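The precision was limited by 3 arrays per group and by the first slide, and for TFAM by a probe at background. The count of regulators called was 1 with 100 nM, 1 with 50 nM for 24 h, 1 with 50 nM for 12 h on day 8 and 4 between the DMSO days. Without batch correction, and on slides 2 and 3 alone, these counts became 0, 0, 0 and 1. With only the probe of highest mean signal per gene, and with only the arrays of the groups compared, the counts with 100 nM and with 50 nM for 12 h became 0. Scaling each array to its 75th percentile gave 2 with 50 nM for 24 h. Leaving out 1 array of the groups compared gave 0 to 1 with 100 nM, 1 throughout with 50 nM for 24 h, 0 to 1 with 50 nM for 12 h and 1 to 3 between the DMSO days, where the 1 came without day 15 replicate 1 and no array left out kept all 4 calls. An alternative chosen after seeing the data, the fit without replicate 3 of the washed-out 100 nM group, gave 5 between the DMSO days, as did Agilent's processed signal scaled per array, where the added call was ESRRA. With the replicate block in place of ComBat, PPARGC1B had log2 fold changes of 0.46, 0.65 and 0.52 on day 8 and -0.89 between the DMSO days, and the block changed no call of a regulator. The counts after wash-out, between doses, between durations and for the change of effect between days were 0 under every alternative. That processed signal moved the median over all genes to a log2 fold change of 0.10 with 100 nM on day 8 and 0.15 between the DMSO days. The causes of these differences were not tested.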

Other observations

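Over the 8 group means, the genes whose pattern was most like that of PPARGC1B, among 12921 genes above background on all arrays, were RPAP3, TLCD5 and RBBP8, with Pearson's r of 0.996, 0.996 and 0.995. For PPARGC1A they were CHMP2B, SERPINE2 and ABHD17C, with r of 0.983, 0.982 and 0.981. For the TFAM average, which a probe at background dominates, they were NDUFB2, EHBP1 and GPSM2, with r of 0.983, 0.976 and 0.955. Within the set, PPARGC1B and TFB1M had r of -0.964, PPARGC1A and TWNK -0.888, PPARGC1A and PPARGC1B -0.630, and NRF1 and TWNK 0.927. These values describe 8 points that share arrays, slides and a split by day.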
